A study of Mus musculus with 108 samples.

Results

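The early response of the liver to Wy-14643 was compared with the early response to clofibrate, as the effect of Wy-14643 against its own vehicle minus the effect of clofibrate against its own vehicle. RNA was taken from livers of female ovariectomized C57BL/6 mice at 2, 4 and 8 h after a single gavage of 300 mg/kg of either compound, or of sesame oil alone. Each compound had its own vehicle arrays, together called its arm, and each of the 12 groups held 3 single-colour Cy3 Agilent arrays, so the comparison used 36 of the 108 arrays of the series. All mice lacked ovaries, so the comparison describes livers without ovarian hormones, and the sources used here do not state that the 3 arrays of a group are 3 separate animals. If they are not, the spread between arrays is partly technical. Doses were equal by mass, and molar amounts were not compared.

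Genes entered when every group had values and no array stood at the scanner limit. Of 14033 genes listed in at least 1 group, 9030 were listed in all 12, and 509 of these were left out because a value lay at the tied top of an array, between log2 15.75 and 16.46. This left 8521 genes for the difference averaged over 2, 4 and 8 h. Between 15750 and 20970 of the 41096 probes were listed on an array, and the number differed by group. It was 20078 to 20970 in the Wy-14643 arm. After clofibrate at 8 h it was 15750 to 15771, against 19718 to 19729 in the vehicle arrays of that arm and time. Correlations between arrays ran from 0.888 to 0.991. Of the 7 hepatocyte markers on the array, 5 (Alb, Ahsg, Apoa1, Apoh and Fgb) were at the scanner limit. None of the 42 tested markers of hepatocytes, Kupffer cells, endothelium, stellate cells, bile ducts and blood was called for the difference, beside 0.0821% of all genes. No fat cell marker could be tested. The RNA is from whole liver, where fewer cells of a type and less RNA per cell cannot be told apart. Whether the vehicle arrays of both arms came from the same mice is not stated. Deviations of vehicle arrays of equal number correlated between the arms at -0.12 to 0.64, above 0.1 in 6 of 9 cases. The vehicle arrays of the arms also differed from each other, with 779 of 9940 genes called by limma for the mean of the 3 times. Subtracting each arm's vehicle takes this out only where the treated arrays share it, which was not tested. Where they do not, it enters the difference of the compounds.

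Each compound activates PPAR alpha, a receptor of the nuclear family. Paired with RXR it switches on genes for fatty acid uptake, oxidation, ketone production and lipid droplets in liver, much as fasting does. Clofibrate is the ethyl ester of a branched chlorophenoxy acid and acts after the ester is cleaved. Wy-14643, also called pirinixic acid, is a free acid built on a chlorinated pyrimidine with a thioether and a dimethylanilino group. In rodents both cause peroxisomes to multiply.

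In the difference of the responses 7 genes were called. In the difference averaged over 2 to 8 h, the lipid droplet protein Hilpda, the stress-induced protein Ndrg1, the actin-binding protein Enc1, the endoplasmic reticulum ATPase Tor3a and the cation channel Trpv2 were higher with Wy-14643. The bile acid enzyme Cyp7a1 and the spindle protein Gpsm2 were lower with it. These 7 calls are 0.0821% of the 8521 genes tested (0.0587% higher and 0.0235% lower), at an adjusted p of limma under 0.05 with Benjamini-Hochberg adjustment over all genes. An unadjusted p under 0.05 was met by 263 genes, or 3.09%, of which 81 were higher and 182 lower. By single times no gene was called at 2 h (0 of 9695, with 138 at an unadjusted p under 0.05) or at 4 h (0 of 10423, with 168). At 8 h Enc1 was called alone among 9165 genes (0.0109%, with 374 at an unadjusted p under 0.05), but with each array scaled on all probes it lists 851 genes were called at 8 h, 850 of them higher. With arrays of equal number taken as pairs, Tor3a (1.52) and the transcription factor Maff (-1.55) were called at 2 h, which is 0.0206%, and none was called at 4 h. The paired fit called 14 genes for the averaged difference (0.164%), the 7 among them, and 5 at 8 h (0.0546%). Its unadjusted p was under 0.05 for 9.9% of genes in the average, 4.76% at 2 h, 6.78% at 4 h and 13.4% at 8 h. The 3.09% of the main fit is below the share of 0.05 that arises when nothing differs. The main fit may thus be too strict, and its few calls do not show that the compounds act alike.

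For genes that were not called, the intervals bound the difference. For the averaged difference the 95% interval lay wholly within 2-fold in either direction for 8197 genes, or 96.2%, and within 1.5-fold for 66.7%. At single times it lay within 2-fold for 71.3% of genes at 2 h, 67.8% at 4 h and 61.9% at 8 h. The split of the calls depended on how arrays were set to a common level. With each array scaled on all probes it lists, the median difference of all genes moved from -0.03 to 0.23 and 36 genes were called, of which 97.2% were higher, against 71.4% of the 7. The number of listed probes differed by group, and its part in this shift was not tested.

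Against their own vehicles and over every gene that could be tested, 7.3% of 10543 genes rose and 12.1% fell with Wy-14643, and 6.23% of 8656 rose and 5.72% fell with clofibrate. These splits depend on the scaling. The share of calls that were higher was 37.7% for Wy-14643 and 52.1% for clofibrate, but 52.4% and 38.2% with values as deposited and 47.2% and 8.56% with all listed probes. Against their own vehicles and averaged over 2 to 8 h, Wy-14643 changed 1665 of the 8521 genes (7.96% higher and 11.6% lower) and clofibrate 1019 (6.22% higher and 5.74% lower). Both changed 842 genes, or 9.88%, which is 50.6% of the genes called for Wy-14643 and 82.6% of those called for clofibrate. All 842 moved the same way, 435 up and 407 down, and none was called in opposite directions. The same held at single times, with 30 genes called for both at 2 h, 201 at 4 h and 487 at 8 h, and none opposite. The arms use different vehicle arrays, but since these may share mice the overlap and the common direction are a description.

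**Figure D1:**
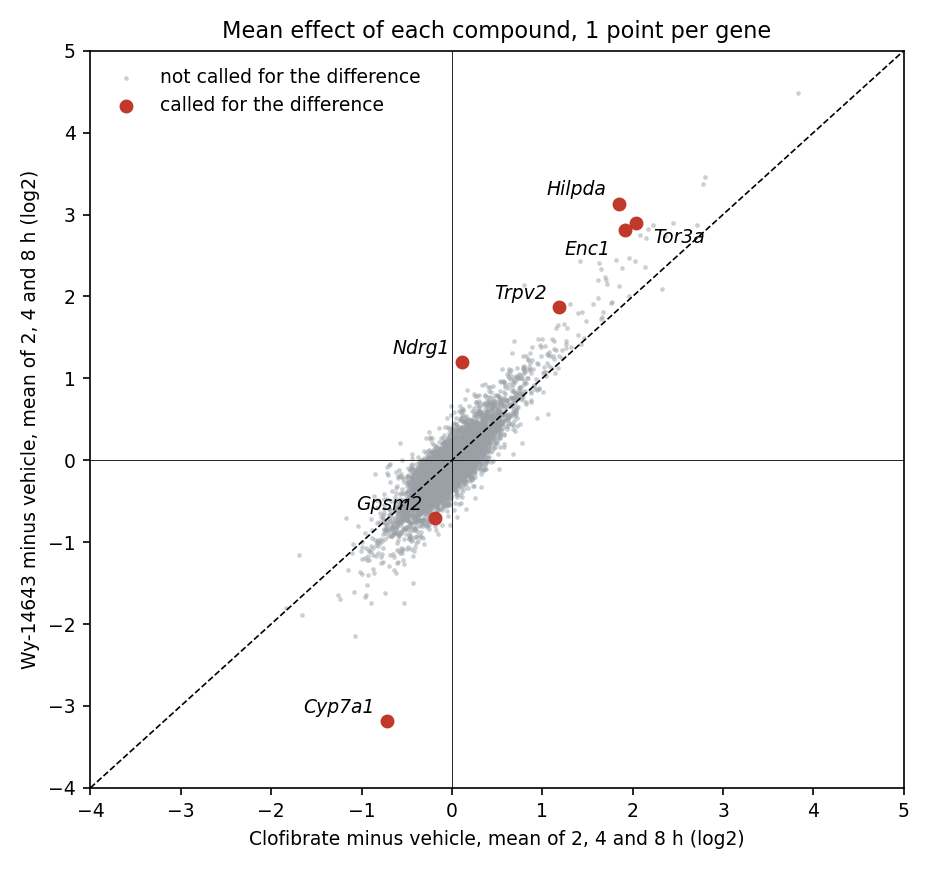
Mean effect of clofibrate (horizontal axis) and of Wy-14643 (vertical axis) against their own vehicles over 2, 4 and 8 h, in log2, with 1 point for each of the 8521 genes and the dashed line marking equal effects. The 7 genes called for the difference are red and named, and the uppermost point is Acot2, at 3.83 with clofibrate and 4.49 with Wy-14643.

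Genes raised by both compounds were on balance slightly higher with Wy-14643. Among the 435 genes raised by both, the median effect was 0.69 with Wy-14643 and 0.59 with clofibrate, and 69.2% had a difference above 0, against 41.6% of all genes tested. Among the 407 genes lowered by both, the medians were -0.64 and -0.50, and 17.7% had a difference above 0. For the raised genes the share stayed between 69.2% and 99.3% under the 5 scalings tried, above that of all genes each time. For the lowered genes it ran from 17.7% to 79.1%, below that of all genes each time. It was 47.2% with values as deposited and 79.1% with all listed probes, where all genes stood at 68.6% and 91.7%. Whether most lowered genes stood below 0 thus depends on the scaling, while their place below all genes did not. The spread of effects over genes was wider with Wy-14643 at 2 h (SD 0.348 against 0.228) and equal at 8 h (0.497 for each). Of the 823 genes called for Wy-14643 and not for clofibrate, 3 were called for the difference, and of the 177 called for clofibrate and not for Wy-14643, none was. A gene called for a single compound is thus not thereby shown to respond differently.

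Hilpda, which coats lipid droplets and blocks the triglyceride lipase Pnpla2, and which hypoxia and PPAR ligands are both known to induce, had the smallest p. Its level on the log2 scale was 9.92, 10.08 and 10.08 in vehicle livers of the Wy-14643 arm at 2 h and 13.06, 13.12 and 12.83 after Wy-14643. In the clofibrate arm it was 10.00, 10.32 and 9.99 in vehicle livers at 2 h and 11.70, 11.86 and 12.18 after clofibrate. Treated and vehicle arrays did not overlap with either compound at any of the 3 times, and every Wy-14643 array lay above every clofibrate array of its time. At 4 h treated levels ran from 13.00 to 13.24 with Wy-14643 and from 11.50 to 12.35 with clofibrate. At 8 h they ran from 12.41 to 12.62 and from 10.97 to 11.64. The mean effect was 8.78-fold with Wy-14643 and 3.60-fold with clofibrate. Their difference was log2 1.29 ± 0.16 (SE, 3 arrays a group), or 2.44-fold (limma adjusted p 2.66e-05). It was 1.17 at 2 h, 1.41 at 4 h and 1.28 at 8 h, and a further Hilpda probe gave 1.44 for the mean.

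Cyp7a1, the rate-limiting enzyme that turns cholesterol into bile acids, showed the largest difference in size. In vehicle livers its mean level differed widely between the sampling times, from 10.10 at 2 h to 14.30 at 4 h and 14.77 at 8 h in the Wy-14643 arm, and from 9.89 to 14.28 and 14.73 in the clofibrate arm. After Wy-14643 it stood at 6.54, 8.25 and 8.20 at 2 h, at 8.10, 9.45 and 9.07 at 4 h, and at 12.30, 13.32 and 13.60 at 8 h. All of these lay below the vehicle arrays of their time. After clofibrate it stood at 10.27, 11.59 and 9.30 at 2 h, at 13.33, 12.38 and 11.42 at 4 h, and at 13.50, 13.79 and 14.65 at 8 h. Clofibrate arrays lay below vehicle at 4 h alone, and overlapped it at 2 h and 8 h. Averaged over the times Cyp7a1 fell 9.10-fold with Wy-14643, while its change with clofibrate, log2 -0.72 ± 0.29, was not called (adjusted p 0.117).

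The difference for Cyp7a1 was log2 -2.47 ± 0.41, or 5.53-fold lower with Wy-14643 (limma adjusted p 0.00707), made up of -2.94 at 2 h, -3.52 at 4 h and -0.94 at 8 h. A dimmer Cyp7a1 probe, listed at 4 and 8 h, gave differences of -1.76 and -0.66, in the same direction and smaller at 4 h. The call was lost when the spread was taken from all 108 arrays (adjusted p 0.194), without 2 h (-2.23, adjusted p 0.235) and without 4 h (-1.94, adjusted p 0.929).

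Enc1, an actin-binding kelch protein best known from the nervous system, rose with both compounds at every time, with no overlap with vehicle. With Wy-14643 its treated levels were 12.90, 13.12 and 12.82 at 2 h, 12.95, 13.18 and 13.15 at 4 h and 13.07, 13.36 and 13.51 at 8 h. With clofibrate they were 11.83, 12.01 and 12.33 at 2 h, 12.17, 12.58 and 12.70 at 4 h and 11.73, 11.47 and 11.28 at 8 h. All clofibrate arrays at 8 h stood below those of 2 and 4 h, and the Wy-14643 arrays of the 3 times overlapped. Vehicle arrays lay between 9.64 and 11.23 in both arms. The mean difference was 0.90 ± 0.17 (1.87-fold, limma adjusted p 0.0163) and the difference at 8 h was 1.71 ± 0.29 (adjusted p 0.0174). Without the 8 h groups the mean difference was 0.50 and was not called, and the 8 h call itself was lost without any of 6 single arrays: vehicle arrays 1 and 2 of the clofibrate arm, Wy-14643 arrays 2 and 3, and vehicle arrays 1 and 3 of the Wy-14643 arm (differences 1.60 to 1.73, adjusted p 0.0533 to 0.134).

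Tor3a, a torsin ATPase of the endoplasmic reticulum lumen, differed early. After Wy-14643 it stood at 12.73, 12.76 and 12.35 at 2 h, 13.39, 13.05 and 13.04 at 4 h and 12.40, 12.57 and 12.86 at 8 h. After clofibrate it stood at 10.96, 10.99 and 10.81 at 2 h, 11.81, 12.43 and 11.82 at 4 h and 12.09, 12.45 and 12.33 at 8 h. Levels with clofibrate were higher at 8 h than at 2 h on every array and overlapped those of Wy-14643 at 8 h alone, while vehicle arrays lay between 9.44 and 10.13 throughout. The difference was accordingly 1.52 at 2 h, 0.91 at 4 h and 0.16 at 8 h, with a mean of 0.86 ± 0.16 (1.82-fold, limma adjusted p 0.0163). The F test over the 3 times did not call this change (unadjusted p in the 8 smallest of 8521, adjusted p 1), and the mean was not called without 2 h (0.54), without 4 h (0.84, adjusted p 0.495) or with the spread of all 108 arrays (0.86, adjusted p 0.615).

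Ndrg1, an intracellular protein that hypoxia and other stresses raise, rose with Wy-14643, and its effect with clofibrate was not called. At 2 h it stood at 13.67, 13.84 and 13.38 after Wy-14643 against 12.58, 12.28 and 12.49 in vehicle, at 4 h at 14.63, 13.63 and 13.40 against 12.57, 12.07 and 12.61, and at 8 h at 11.64, 11.75 and 11.37 against 10.88, 10.56 and 10.47. Wy-14643 arrays lay above vehicle at all 3 times, and clofibrate arrays overlapped vehicle at all 3. The mean effect was 1.20 ± 0.16 with Wy-14643 and 0.12 ± 0.16 with clofibrate, and the difference was 1.08 ± 0.22 (2.12-fold, limma adjusted p 0.0388).

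Trpv2, a calcium-permeable channel, rose with both compounds in the mean of the 3 times. Its treated levels went from 9.23 to 9.43 at 2 h up to 11.03 to 11.42 at 8 h with Wy-14643, and from 8.81 to 9.04 up to 10.65 to 11.20 with clofibrate. Clofibrate arrays overlapped vehicle at 2 h alone. The mean difference was 0.68 ± 0.14 (1.60-fold, limma adjusted p 0.0388).

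Gpsm2, which orients the mitotic spindle and binds G protein subunits, was lower with Wy-14643. Levels after Wy-14643 ran from 10.57 to 11.03, all below their vehicle arrays at 11.35 to 11.73. With clofibrate they ran from 11.00 to 11.37 and lay below vehicle at 2 h alone. The mean difference was -0.53 ± 0.11 (1.44-fold lower, limma adjusted p 0.0388), and a further Gpsm2 probe gave -0.47. Ndrg1, Trpv2 and Gpsm2 are near the threshold: leaving out single arrays in turn kept the calls in 11, 8 and 9 of 36 cases, against 36 of 36 for Hilpda, Cyp7a1, Enc1 and Tor3a.

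**Figure D2:**
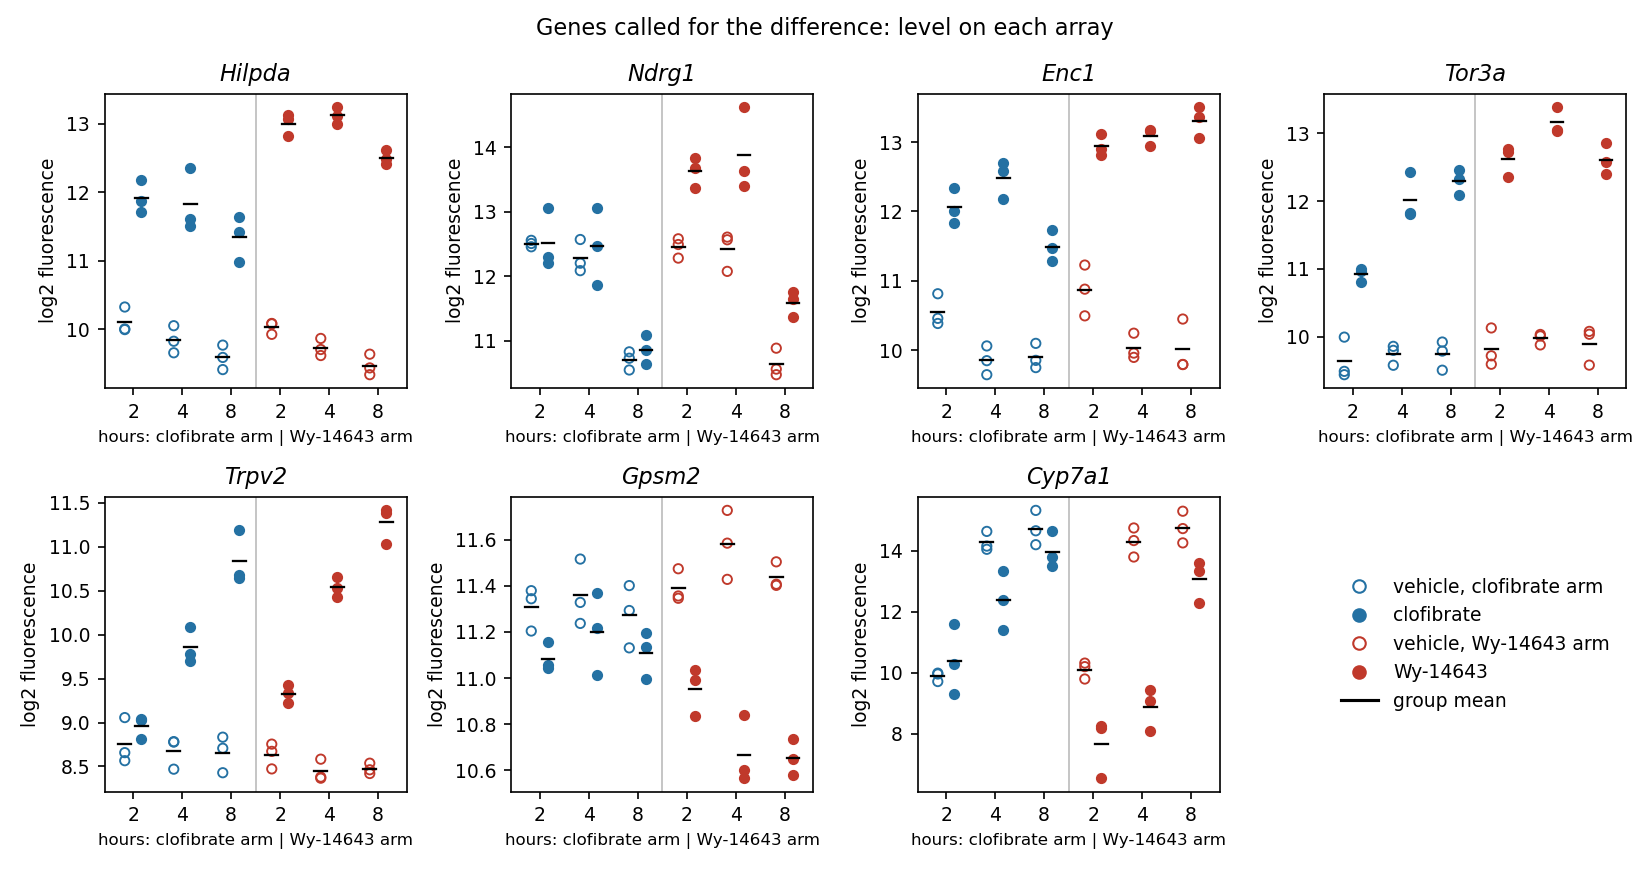
Level of the 7 called genes on each array (log2 fluorescence after scaling, vertical axis, with its own range in each panel) at 2, 4 and 8 h, with the clofibrate arm in blue on the left and the Wy-14643 arm in red on the right. Open circles are vehicle arrays, filled circles treated arrays and bars the group means of 3 arrays; for Cyp7a1 the vehicle means climb from about 10.10 to 14.77 while the Wy-14643 arrays stay below them.

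The 7 genes were also measured at 12, 18 and 24 h after the single dose, on arrays that the comparison did not use. These values come from a fit of all 108 arrays, whose spread includes 2 clofibrate-arm vehicle arrays of 4 and 14 days that are nearly identical (correlation 0.99998). Every difference kept its sign at the 3 later times. Hilpda differed by 3.29 ± 0.38 at 12 h (limma adjusted p 4.28e-09) and 2.16 ± 0.38 at 18 h (6.49e-05), and by 1.06 ± 0.38 at 24 h, which was not called (0.175). Its clofibrate effect at 12 h was -0.14, against 3.15 with Wy-14643. Enc1 differed by 2.20 to 2.84 and Trpv2 by 1.75 to 2.94 at the 3 times, and each was called at all 3. Tor3a differed by 1.98 at 12 h and 2.26 at 18 h, both called, and by 1.41 at 24 h (adjusted p 0.0565). Clofibrate effects at 12, 18 and 24 h were 1.14, -0.11 and -0.02 for Enc1 and 0.42, -0.31 and -0.21 for Tor3a. For Trpv2 they were 1.83, 1.18 and 0.32. These later differences thus include times with little or no clofibrate effect, and do not extend the comparison of both compounds while active. Ndrg1 (0.96 to 1.09), Gpsm2 (-0.58 to -0.41) and Cyp7a1 (-1.95 to -1.81, SE 1.05) were not called at any later time. Among all genes the difference was called for 0.736% at 12 h, 2.79% at 18 h and 2.24% at 24 h.

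**Figure D3:**
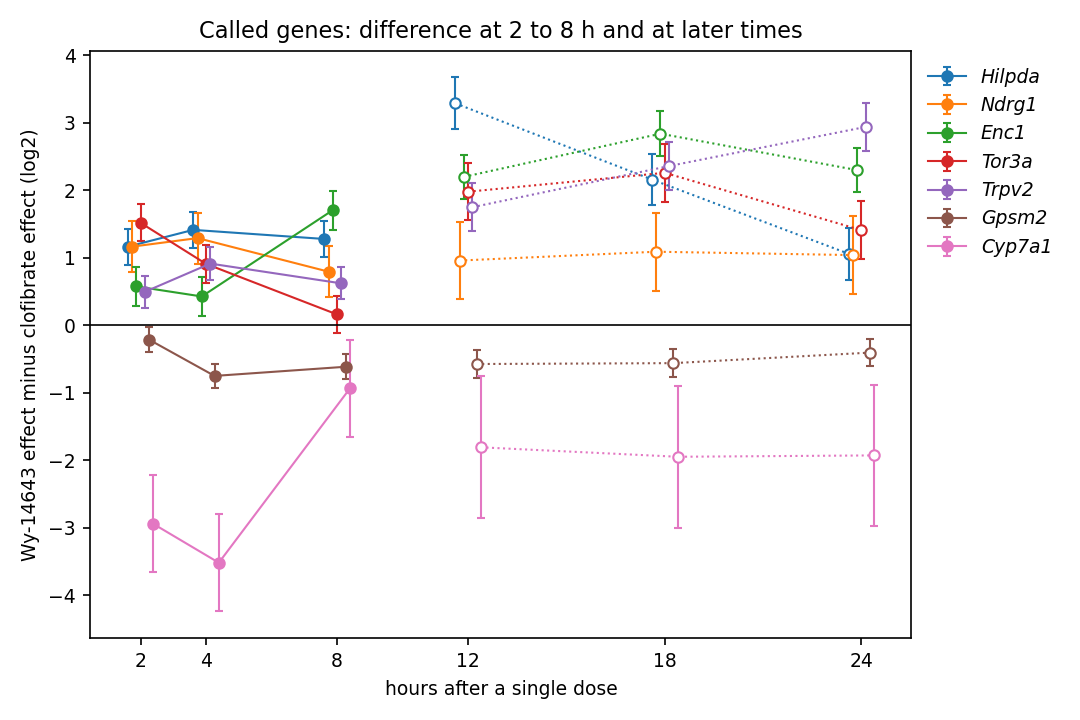
Wy-14643 effect minus clofibrate effect (log2, vertical axis) by hours after the dose for the 7 called genes, as estimate ± SE with 3 arrays a group. Filled points at 2, 4 and 8 h come from the fit of the 36 arrays and open points at 12, 18 and 24 h from the fit of all 108; Hilpda, Enc1, Tor3a and Trpv2 stand between 1.06 and 3.29 at the later times.

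The genes with the largest shared mean effects were tested for how far the compounds differed. The 10 genes most raised by both were Acot2, Ly6d, Gadd45b, Rab30, Slc22a5, Crat, Cpt1b, Cidec, Gpat3 and Acot4, and none was called for the difference. Acot2, a mitochondrial acyl-CoA thioesterase, rose 22.5-fold with Wy-14643 and 14.2-fold with clofibrate, a log2 difference of 0.66 with a 95% interval of 0.31 to 1.01 (limma adjusted p 0.5). Cidec, which fuses lipid droplets, rose 7.08-fold and 4.52-fold, a difference of 0.65 (0.27 to 1.03). The carnitine genes Cpt1b, Slc22a5 and Crat, which carry acyl groups into or out of mitochondria or import carnitine, differed by 0.65 (0.16 to 1.14), 0.46 (0.07 to 0.85) and 0.38 (-0.10 to 0.86). Gpat3, which starts glycerolipid synthesis, differed by 0.57 (0.15 to 0.99).

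Rab30, a small GTPase of the Golgi, and Acot4, a peroxisomal thioesterase, differed least, by 0.16 (-0.36 to 0.69) and 0.23 (-0.21 to 0.67). The surface protein Ly6d and the stress gene Gadd45b had wide intervals, with differences of 0.65 (-0.08 to 1.39) and 0.59 (-0.22 to 1.40). All 10 estimates were above 0, and 5 of the 10 intervals lay within 2-fold. Close relatives such as Acot2 and its neighbours may share probe signal. These genes were picked for large effects of both compounds, and 69.2% of all genes raised by both had an estimate above 0.

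The 10 tested genes most lowered by both were Bmf, Rgs16, Snai2, Ahr, Socs2, 4930581F22Rik, Lpin1, Spata2l, Ddit4 and Tent5c, and none was called. Bmf, which promotes cell death, had effects of -1.80 with Wy-14643 and -1.84 with clofibrate, and the interval of its difference ran from -0.39 to 0.46. Ddit4, an inhibitor of mTOR, differed by 0.07 (-0.55 to 0.69). Ahr, the receptor for dioxin-like ligands, had effects of -1.70 and -1.24, a difference of -0.46 (-0.87 to -0.06). Spata2l had the largest difference of these, -1.08 (-1.63 to -0.52, limma adjusted p 0.412), with effects at 2 h of -1.78 with Wy-14643 and -0.30 with clofibrate. Lpin1, a phosphatidate phosphatase, Rgs16, a brake on G protein signals, Snai2, a repressor of transcription, and Socs2, a brake on growth hormone signals, had intervals reaching past 2-fold or near it. For these the data do not show whether the compounds act alike. Several of the 10 were not lowered at each time. Lpin1 arrays overlapped vehicle at 2, 4 and 8 h with Wy-14643. With clofibrate Lpin1, Rgs16, Spata2l and Tent5c overlapped vehicle at 2 and 4 h.

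**Figure D4:**
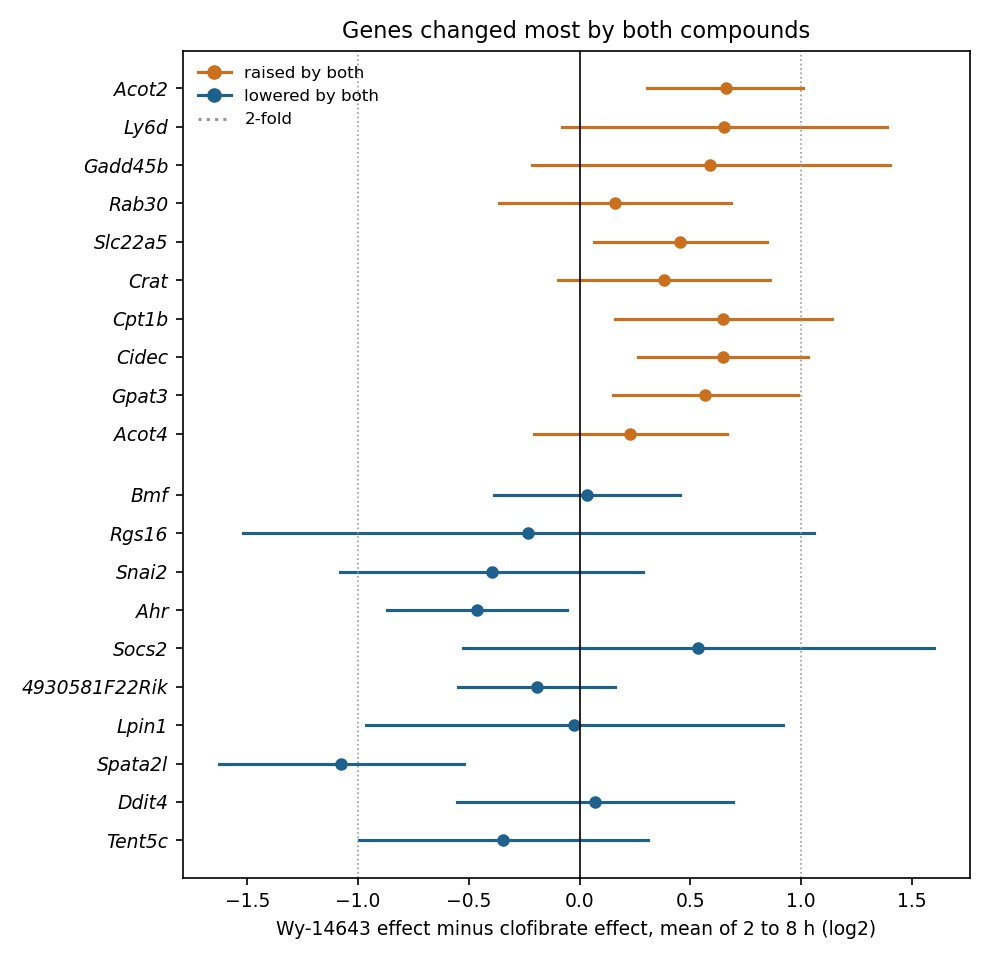
Wy-14643 effect minus clofibrate effect averaged over 2 to 8 h (log2, horizontal axis) with 95% intervals. Genes are the 10 most raised (orange) and the 10 most lowered (blue) by both compounds among the 8521 tested. Dotted lines mark 2-fold, and all 10 raised genes have estimates above 0, from 0.16 for Rab30 to 0.66 for Acot2.

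Pathway genes were grouped in 32 lists. Of their 339 tested members 2 were called, or 0.59%, beside 0.0821% of all genes: Hilpda among lipid droplet genes and Cyp7a1 among bile acid genes. The lists were chosen with results of these data known, so nothing is read from that share. List medians of the difference ran from -0.40 to 0.22, beside -0.03 for all genes, and 28 of the 32 lay within 0.2 of 0. Under the scaling on all listed probes the median of all genes rises to 0.23, so list medians are to be read relative to that of all genes. In the main scaling 7.96% of all 8521 genes rose and 11.6% fell with Wy-14643. With clofibrate 6.22% rose and 5.74% fell, and 41.6% of the differences lay above 0. The counts in the lists below are to be read beside these shares, and a short list with no call is near 0.0821%.

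Fatty acid oxidation genes were not called for the difference, which in lists this short is near the 0.0821% of all genes. In mitochondrial beta-oxidation 13 genes were tested, of which 8 rose and 1 fell with each compound, and their median difference was 0.03. Long-chain acyl-CoA dehydrogenase Acadl rose by 0.58 and 0.68, with a difference of -0.10 (-0.43 to 0.23). Of 9 tested peroxisomal genes, 3 rose with each compound and the median difference was 0.08. The omega-hydroxylase Cyp4a12b rose by 2.00 with Wy-14643 and 1.96 with clofibrate, a difference of 0.05 (-0.45 to 0.54), and its signal may include the near-identical copy Cyp4a12a. Many targets in these lists were at the scanner limit, 8 of 21 mitochondrial, 10 of 19 peroxisomal and 4 of 10 omega-oxidation genes, Ehhadh, Acaa1b and Cyp4a14 among them. Where such a gene had a probe that was never at the limit, it was tested on it, which gave -0.01 (-0.54 to 0.51) for Cyp4a10, an omega-hydroxylase, -0.18 (-0.74 to 0.39) for the peroxisomal transporter Abcd3 and 0.18 (-0.53 to 0.89) for the peroxisomal carnitine acyltransferase Crot.

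Of 8 tested acyl-CoA thioesterases, 5 rose with each compound and none differed by the test. Acot8, a peroxisomal member, rose by 1.38 and 0.98, a difference of 0.40 (0.15 to 0.66, limma adjusted p 0.852). Of 10 tested lipid droplet genes, 6 rose and 1 fell with each compound. Their median difference was 0.17, and Plin4, a droplet coat protein, differed by 0.51 (-0.24 to 1.26), while Fitm2, which helps droplets bud, differed by 0.22 (-0.16 to 0.61). Plin2, Plin5 and G0s2 were at the scanner limit.

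The fasting hormone Fgf21 and the cell cycle inhibitor Cdkn1a had large differences that were not called. For Fgf21 the effect was 2.13 with Wy-14643, which was called, and 0.80 with clofibrate, which was not, and the difference of 1.33 had an interval of 0.37 to 2.30 (limma adjusted p 1). Cdkn1a rose by 2.43 and 1.41, with a difference of 1.02 (0.34 to 1.70, adjusted p 0.983). Their intervals do not include 0 and reach past 2-fold. Pdk4 and Angptl4, further fasting genes, were at the scanner limit and were not tested.

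Bile acid genes other than Cyp7a1 were not called. Of 18 tested members, 6 fell and 1 rose with Wy-14643 and 2 fell with clofibrate, where 11.6% and 5.74% of all genes fell. The median difference was -0.13, and 3 of 18 were above 0, against 41.6% of all genes. Cyp8b1, which sets the share of cholic acid, differed by -0.63 (-1.44 to 0.17) and Akr1d1, a later enzyme of the pathway, by -0.78 (-1.59 to 0.04). Nr0b2, a repressor of Cyp7a1 also called SHP, had effects of -0.26 with Wy-14643 and -0.45 with clofibrate, and a difference of 0.18 (-0.21 to 0.58). The basolateral pump Abcc4 differed by 0.49 (0.10 to 0.88, limma adjusted p 1).

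Fatty acid synthesis and desaturation had 15 tested genes, of which 4 rose with each compound. The difference was above 0 in 4 of 15 (median -0.11), against 41.6% of all genes. Elovl3, a fatty acid elongase, rose by 2.34 with Wy-14643 and 1.65 with clofibrate, a difference of 0.69 (-0.10 to 1.48). Acly, which makes cytosolic acetyl-CoA, differed by -0.54 (-1.15 to 0.07). Of 15 tested cholesterol genes, 2 rose and 3 fell with Wy-14643 and 1 rose and 2 fell with clofibrate, with a median difference of 0.03. Of 11 tested genes of tryptophan, NAD and nicotinamide metabolism, 5 fell with Wy-14643 and none with clofibrate, where 11.6% and 5.74% of all genes fell. Their median difference was -0.22 and none was called for it, so a different response is not shown. Ido2, a tryptophan dioxygenase, had effects of -0.60 and -0.34 and a difference of -0.25 (-0.61 to 0.11). Among 11 tested PPARs, partners and coregulators, Rxrg, a partner receptor, had a difference of 0.47 (0.12 to 0.83, limma adjusted p 1).

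Markers of other liver cells were not called for the difference, beside 0.0821% of all genes. The median difference was 0.01 over 11 Kupffer cell and macrophage markers, 0.01 over 10 endothelial markers and 0.12 over 10 stellate cell and fibroblast markers, and no gene of these lists was called for either compound. The 3 tested bile duct markers had differences of 0.18 to 0.34, none called, and 2 of them rose with Wy-14643 and 1 with clofibrate. The summed level of the Kupffer cell markers on the log2 scale lay between 16.42 and 17.03 after Wy-14643 and between 16.19 and 17.35 after clofibrate over the 3 times, and vehicle arrays lay within that last range.

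No clock or cell cycle gene was called for the difference, beside 0.0821% of all genes. Of 12 tested clock genes, 6 fell with Wy-14643 and 2 with clofibrate, where 11.6% and 5.74% of all genes fell. Their median difference was -0.34, and 2 were above 0, against 41.6% of all genes. Per2, a repressor within the clock, differed by -0.75 (-1.37 to -0.14). Of 19 tested cell cycle genes, 2 had a difference above 0, with a median of -0.16, and the lowest was Mcm6, a subunit of the replicative helicase, at -0.72 (-1.27 to -0.18). The helicase subunit Mcm5 had an effect of 0.07 with Wy-14643 and 0.68, a called rise, with clofibrate. Its difference of -0.60 was not called, so a different response is not shown. Complement and coagulation genes had medians of -0.19 and -0.17, with 0 of 9 and 0 of 7 above 0. A further 7 complement and 10 coagulation genes were at the scanner limit and were not tested.

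No gene of the endoplasmic reticulum stress and amino acid response was called, beside 0.0821% of all genes. Of 12 tested, 10 had a difference above 0, against 41.6% of all genes, and their median was 0.22. Creld2, an endoplasmic reticulum chaperone-like protein, rose by 1.31 with Wy-14643 and 0.66 with clofibrate, and Trib3, a stress-induced pseudokinase, had effects of -0.70 and -1.17. Their differences were 0.65 (0.02 to 1.28) and 0.47 (0.01 to 0.93). Of 12 tested heat shock and chaperonin genes, 6 rose with Wy-14643 and 10 with clofibrate, where 7.96% and 6.22% of all genes rose. Their median difference was -0.07, and none was called for it.

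**Figure D5:**
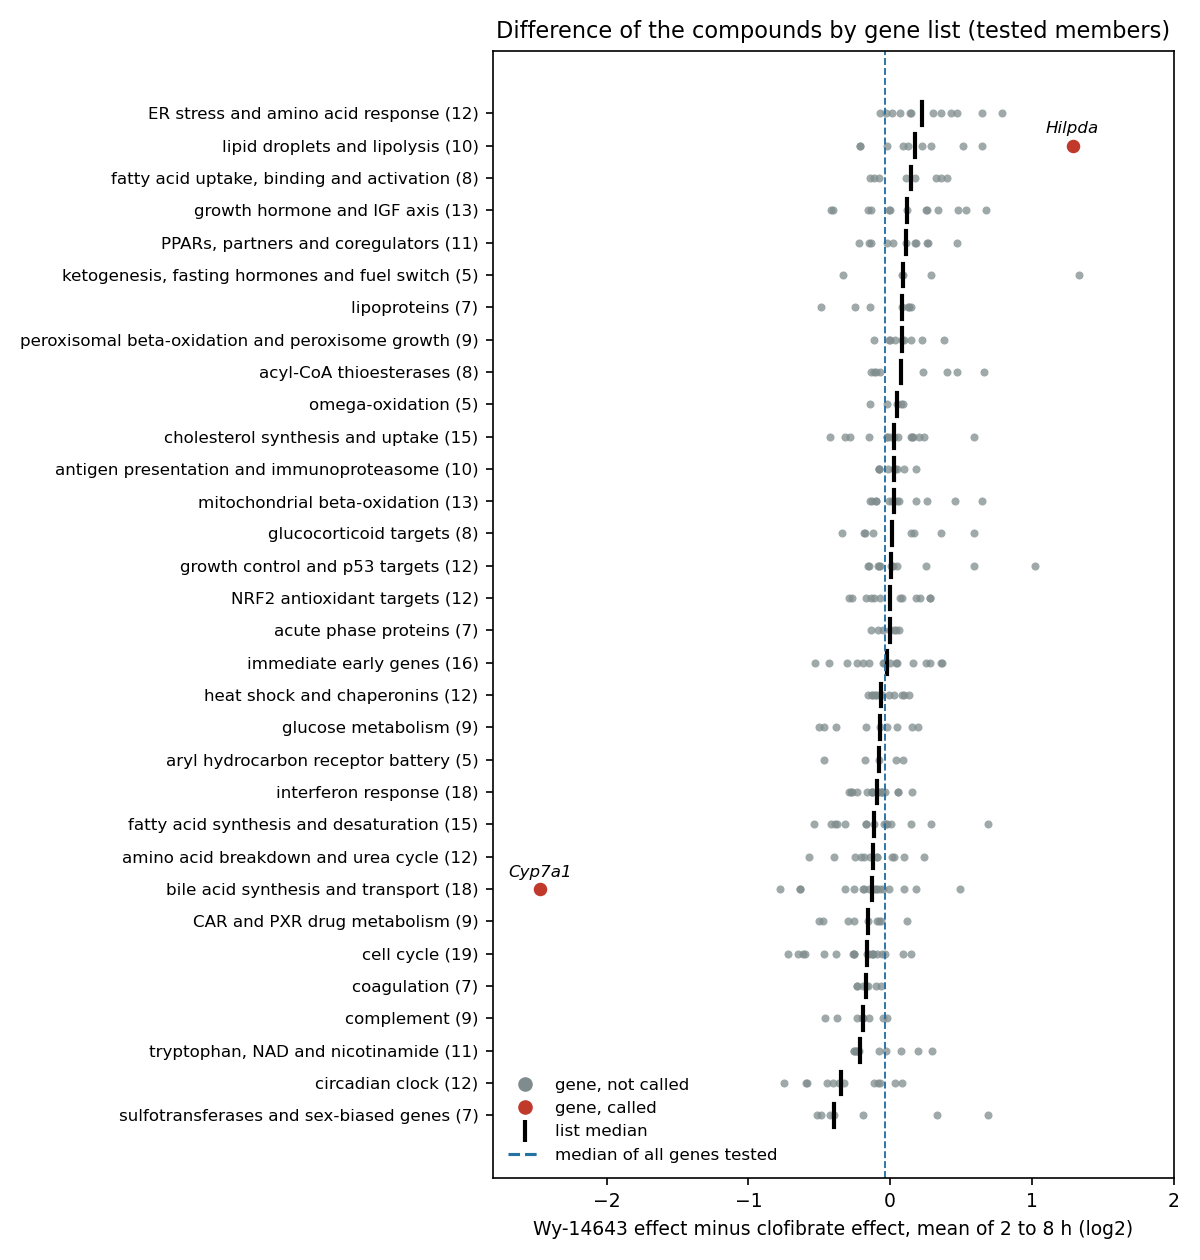
Wy-14643 effect minus clofibrate effect averaged over 2 to 8 h (log2, horizontal axis) for the tested members of 32 gene lists, with the number tested in brackets, black bars for list medians and a dashed line for the median of all genes, -0.03. Hilpda and Cyp7a1, in red, are the called members; medians run from -0.40 to 0.22, and all would move up with the all-gene median of 0.23 under the scaling on all listed probes.

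Change of the difference between 2, 4 and 8 h was tested by an F test. None of 8521 genes was called by limma, and 94 had an unadjusted p under 0.05. The 8 smallest p-values belonged to Pmm1, Ppp1r3g, Maff, Sucnr1, Ctdsp2, Unc119, Rad9a and Tor3a. Ppp1r3g, which targets a phosphatase to glycogen, had differences of -1.34 at 2 h, -0.26 at 4 h and 2.06 at 8 h. Pmm1, a phosphomannomutase, had -0.24, -0.31 and 1.33, with an effect of 2.35 with Wy-14643 at 8 h against 1.02 with clofibrate. Both genes rose with each compound in the mean. Their differences changed sign between 2 and 8 h without passing the test. For Pmm1 the interval at 2 h was -0.87 to 0.39, so no order of the compounds is shown there. Both genes were named for their small p for this change, so the change is partly a result of that choice.

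Promoters of the shared genes were searched for the binding motif of PPAR and RXR, AGGTCA repeated directly with 1 base between, on both strands with at most 2 mismatches in the repeats. RefSeq promoter windows (GRCm38.p6, 250 bases before to 50 after a start) were at hand for 6972 of the 8521 tested genes, and 3.73% held a match. A gene counted when any of its windows matched. The share was 3.88% of 361 genes raised by both compounds and 4.12% of 340 lowered by both, close to the 3.73% of tested genes. By single windows, an unlike measure since a gene can have several, 3.86% of all 32851 held a match. Windows were at hand for Gpsm2, Hilpda and Trpv2 among the 7 called genes, and none of these held a match, which concerns these 300 bases alone.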

How the data were processed

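The deposited values are log2 fluorescence per probe, as the authors left them. Per the labels' protocols, total RNA was extracted with TRIzol and labelled with Cy3. The steps of image reading, background treatment and normalization are not given in the sources used here. Within each group of 3 arrays the tied brightest probes average about 16, and any scaling between groups is unknown. Cells are empty where a group has no value, and 5003 genes lacked at least 1 group. Dim genes are therefore partly missing by group.

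Gene names came from the platform annotation, and 32609 probes had 1 symbol, 44 several and 8443 none. Probes with several or none were not used. Arrays were scaled to their 75th percentile, taken over 13190 probes with a value on all 36 arrays. Each gene was read from the probe listed in most groups, then the brightest. A group needed 2 values, and none at the tied top. limma (version 3.58.1, R 4.3.3) fitted 1 mean per group with a variance trend. Benjamini-Hochberg adjustment ran over all genes of a comparison, and calls were made at 0.05. Intervals are 95% intervals of that fit, and the number of arrays limits their precision. Python 3.11.15 and matplotlib 3.10.9 were used for plots and promoters. The comparison, the gene lists and the naming rule were chosen with earlier results of these data known. Named genes are all called genes, and the 10 tested genes most raised and most lowered by both compounds (ranked by the smaller effect). Genes with the 8 smallest p-values for change over time are also named. Uncalled list members are examples, given with their intervals except for Mcm5. These, like the genes at the limit that are given from another probe, were picked after their values were seen.

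Replicate numbers are in the labels without a statement that they pair animals. Deviations from group means correlated above 0.1 between a treated array and the vehicle array of its number in 17 of 18 pairs, in every pair at 2 and 4 h, and at -0.05 in 1 pair at 8 h. The fit was tested on simulated data with noise independent between arrays, so the simulation does not cover the correlated pairs. Of 100 simulated 2-fold differences it called 84 in the average, 24 at 2 h, 30 at 4 h and 33 at 8 h. At single times most differences of that size would thus be missed. Other scalings, probe choices, spread estimates, replicate blocks and left-out arrays or times were tried.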

Additional observations from a re-analysis of the deposited data

Results flagged for a closer look

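Rad9a, a checkpoint clamp subunit, lay on opposite sides of vehicle with the compounds at 8 h. Its levels after Wy-14643 were 7.68, 7.68 and 7.85, all below the vehicle arrays at 8.02 to 8.38, and after clofibrate 8.63, 8.45 and 9.47, all above the vehicle arrays at 8.12 to 8.24. The difference of -1.13 was not called (limma adjusted p 0.430). Rad9a was named for its small p for change of the difference over time. Such separation was looked for among the named genes alone, and its share over all genes was not counted.

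Maff, a small basic leucine zipper factor, lay on opposite sides of vehicle with Wy-14643 at 2 and 4 h. All Wy-14643 arrays lay below vehicle at 2 h (effect -0.90) and all lay above it at 4 h (effect 0.71), a change of 1.61 between these times that was not tested by itself. Clofibrate arrays overlapped vehicle at all 3 times. Maff too was named for its small p for change of the difference over time, so a change between times is partly a result of that choice.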

How the results depend on the processing

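The count for the mean difference was 7, and 6 with values as deposited or with median scaling, 5 with quantile normalization, and 4 to 7 when single arrays were left out. It was 36 (35 higher) with the 75th percentile over all listed probes, 2 with all 108 arrays (Hilpda and Enc1), 14 (8 higher, 6 lower) with a replicate block of pairs, 3 without 2 h, 2 without 4 h and 3 without 8 h. The split was 5 higher and 1 lower as deposited and 3 and 2 with quantiles. At 2 h the count was 1 with values as deposited or the mean of a gene's probes, 2 with either replicate block and 0 to 1 without single arrays. At 4 h it was 1 with values as deposited, with all listed probes and with the mean of a gene's probes, 2 with the block within arms and 0 to 3 without single arrays. At 8 h it was 2 as deposited, 851 with all listed probes (850 higher, median of all genes 0.51), 3 with all 108 arrays, 5 with the block of pairs, 3 with the block within arms and 0 to 3 without single arrays.

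Wy-14643 calls over 10543 genes numbered 2044, 3596 with the block of pairs and 1812 to 2267 without single arrays. Clofibrate calls over 8656 genes numbered 1034, and 2922 with all listed probes (8.56% higher), 2387 with the block of pairs, 1703 with the block within arms and 780 to 1215 without single arrays. Genes called for both numbered 842, 1775 with the block of pairs, 1352 with the block within arms and 679 to 895 without single arrays. Genes called in opposite directions numbered 3 with all listed probes, 1 with the block of pairs and 0 to 1 without single arrays. The F test called 1 gene with the block within arms and 0 without any single array. The cause of these shifts was not tested. The block within arms and the direct comparison of treated arrays were chosen after seeing the data.

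The block of pairs kept all 7 genes and added 1300002E11Rik, Bace1 and Tmem254a, higher, and Dll1, Fgfr3, Gnpda1 and Npr3, lower, named after their values were seen. Of 53 alternatives, Hilpda stayed called in 53, Enc1 in 52, Cyp7a1 and Tor3a in 50, Ndrg1 in 23, Trpv2 in 20 and Gpsm2 in 19, and none of the 7 changed sign. The majority direction of the calls of each compound did turn with values as deposited. With treated arrays of the compounds compared directly, without vehicles, 1436 genes were called for the mean (424 higher, 1012 lower, all 7 among them), 68 at 2 h, 72 at 4 h and 1003 at 8 h. This holds any difference between the arms, which was present between the vehicles.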

Other observations

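Hilpda and Ndrg1 are both known to respond to hypoxia, so further genes known for that response were listed after their values were seen. Of 28 such genes 21 were tested and none was called for the mean difference, beside 0.0821% of all genes. Their differences ran from -0.41 to 0.41 with a median of -0.06, and 8 of 21 were above 0, against 41.6% of all genes. Both counts are near the shares of all genes, and a part of hypoxia in the difference was not tested. Vegfa, the endothelial growth factor, differed by 0.04 (95% interval -0.33 to 0.41), the glucose transporter Slc2a1 by 0.00 (-0.72 to 0.72), the oxygen sensor Egln3 by -0.07 (-0.41 to 0.28) and the mitophagy receptor Bnip3 by -0.19 (-0.46 to 0.08).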
